A study of Mus musculus with 3 samples.

Results

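The genes of growth control examined here are Myc, its binding partners Max and Mxd1, the enzymes that make polyamines, and the factors that transcribe ribosomal RNA and assemble ribosomes. They were chosen by name, with their differences between libraries within cell classes and between precursors and mature cells already known, so these contrasts are described here without a test. Of 32 genes named, 29 have a row in the count matrices, out of 19059 genes in all; Amd1, Rrp12 and Pes1 were not analysed here. RNA was counted with gene-specific probes in fixed, viable CD45-positive cells, the leukocyte fraction, sorted from mouse liver at postnatal day 0. There were 3 libraries, 1 per genotype: Pex2-/- (KO), Pex2 heterozygous (Het) and wild type (WT). All were of the same age and went through the same preparation and sort, no treatment is named, and how many animals each library pools was not stated. Pex2 encodes a membrane protein needed to build peroxisomes, and the comparison asks how its loss changes liver leukocytes of the newborn. With 1 library per genotype, a difference between genotypes cannot be told apart from a difference between libraries or animals, and no p-value is given.

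Myc is a transcription factor that binds DNA as a pair with Max and raises the transcription of genes used for growth. Mxd1 pairs with Max as well and represses the same kind of gene, and it is known for its rise in granulocytes that leave the cell cycle. Among the genes Myc is known to drive are Odc1, the first enzyme of polyamine synthesis, and many nucleolar proteins that make ribosomes. Newborn liver still forms blood cells, and myeloid precursors there divide while mature neutrophils do not.

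The libraries held 8245 barcodes in KO, 8000 in labelled Het and 9600 in labelled WT, and no full barcode was shared. Median depth per barcode was 19348 unique molecules (UMIs) in KO, 15558.5 in labelled Het and 8218.5 in labelled WT. The targeted gene Pex2 had 0.0107 CPM (counts scaled to the library total) in KO, 53.3 CPM in labelled Het and 23.6 CPM in labelled WT. The KO value fits its label, but the heterozygous level lies above the wild-type one, so those libraries are called labelled Het and labelled WT throughout. Y-linked Ddx3y had 3 UMIs in KO, 2 in labelled Het and 7956 in labelled WT, so Y-linked RNA was nearly confined to labelled WT. Cells were assigned to 14 classes by summed CPM of marker genes. Each class name means only that its own markers were above their limits and certain other markers below theirs. Cells that met more than 1 class were left out. Granulocyte precursors numbered 104 in KO, 212 in labelled Het and 220 in labelled WT, and precursors with monocyte markers 139 in KO, 145 in labelled Het and 142 in labelled WT. Of the last class 26.6% in KO, 26.9% in labelled Het and 21.8% in labelled WT lay near a limit, within a ratio of 5 to 4. UMIs were then summed per library and class, and CPM below is scaled to that sum, with exact intervals that cover counting error only. Probes differ between genes, so levels are compared between libraries and classes, and never between genes. A member is called lower in KO where KO lay at least 1.5-fold below both other libraries, both 95% intervals excluded 1, the mean was at least 10 CPM and there were at least 30 UMIs in all. Each count of such members is set beside the share of all genes that met the same rule, the background.

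Myc (GRCm38 chr15:61985391-61990374, plus strand) had its lowest level in KO in 12 of 14 classes and was called lower in 7 of the 13 in which it was high enough to test. Mature neutrophils and B cells with neither early nor late markers are among the 12, and in both the direction turned under other settings. In granulocyte precursors, defined by Elane, Mpo, Prtn3, Ctsg and Ms4a3, Myc stood at 372 CPM in KO, 1458 CPM in labelled Het and 954 CPM in labelled WT. KO was 0.255-fold (95% interval 0.243 to 0.268) of labelled Het and 0.390-fold (95% interval 0.369 to 0.412) of labelled WT. It was the only member for which labelled Het lay at least 1.5-fold above both other libraries in this class (background 0.788%). In precursors that also carried monocyte markers it stood at 124 CPM in KO, 850.2 CPM in labelled Het and 528 CPM in labelled WT. The KO library was the lowest of the 3 in both classes, and labelled Het was the highest.

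Myc in dividing monocytes was at 35.7 CPM in KO, 211 CPM in labelled Het and 118 CPM in labelled WT. In non-dividing monocytes it was at 35.0 CPM in KO, 284 CPM in labelled Het and 109 CPM in labelled WT, a log2 ratio of -3.02 against labelled Het and -1.64 against labelled WT. The step between labelled Het and labelled WT is itself large here, 1.38 on the log2 scale, so the size of the KO difference depends on which library it is set against. Macrophages, defined by C1qa, C1qb, C1qc, Vsig4 and further markers, had Myc at 106 CPM in KO, 434 CPM in labelled Het and 173 CPM in labelled WT, and it was called lower.

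Along the neutrophil lineage Myc was low in every library after the precursor stage. Dividing granule-stage neutrophils, which carry Camp, Ltf, Ngp and Cd177, had 6.30 CPM in KO, 20.7 CPM in labelled Het and 9.30 CPM in labelled WT, and the ratio to labelled WT, -0.56 on the log2 scale, did not reach the 1.5-fold limit. Non-dividing granule-stage neutrophils had 7.03 CPM in KO, 55.0 CPM in labelled Het and 38.3 CPM in labelled WT, and Myc was called lower there. Mature neutrophils had 0.591 CPM in KO, 4.56 CPM in labelled Het and 2.22 CPM in labelled WT, from 18 UMIs in KO, 89 in labelled Het and 43 in labelled WT. That level is below the minimum for a call, and with cells gated after thinning to equal depth the log2 ratio was -0.24 against labelled Het and 0.20 against labelled WT.

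Cells of the non-dividing granule stage still carried precursor markers, whose part in the Myc difference was not tested. Summed precursor markers in that class were 2216 CPM in KO, 4645 CPM in labelled Het and 6553 CPM in labelled WT. Among its cells with under 1000 CPM of these markers, an alternative added after the data were seen, the Myc log2 ratio was -2.38 against labelled Het but -0.47 against labelled WT. The members called lower there numbered 6 of 12 tested (background 8.32%), in place of 16 of 20.

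Of the B-lineage, stem, erythroid and basophil classes, Myc was called lower in 1. B cells with surrogate light chain genes, an early stage, had Myc at 123 CPM in KO, 261 CPM in labelled Het and 275 CPM in labelled WT, and it was called lower. Myc in B cells with neither early nor late markers was at 35.0 CPM in KO, 60.5 CPM in labelled Het and 46.1 CPM in labelled WT, and in those with Ms4a1 or Ighd at 83.5 CPM in KO, 100 CPM in labelled Het and 106 CPM in labelled WT. Neither passed the rule, and in the middle class the direction turned under 2 alternative settings. Stem and progenitor cells, only 28 cells in KO, held Myc at 571 CPM in KO, 1009.9 CPM in labelled Het and 686 CPM in labelled WT. Erythroid cells had the highest Myc of the 14 classes in KO and in labelled Het, and in labelled WT a level close to that of granulocyte precursors: 1192 CPM in KO, 1779 CPM in labelled Het and 962 CPM in labelled WT. KO lay between the other libraries. The order was the same in basophil or mast cells, at 318 CPM in KO, 399.5 CPM in labelled Het and 292 CPM in labelled WT.

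**Figure D1:**
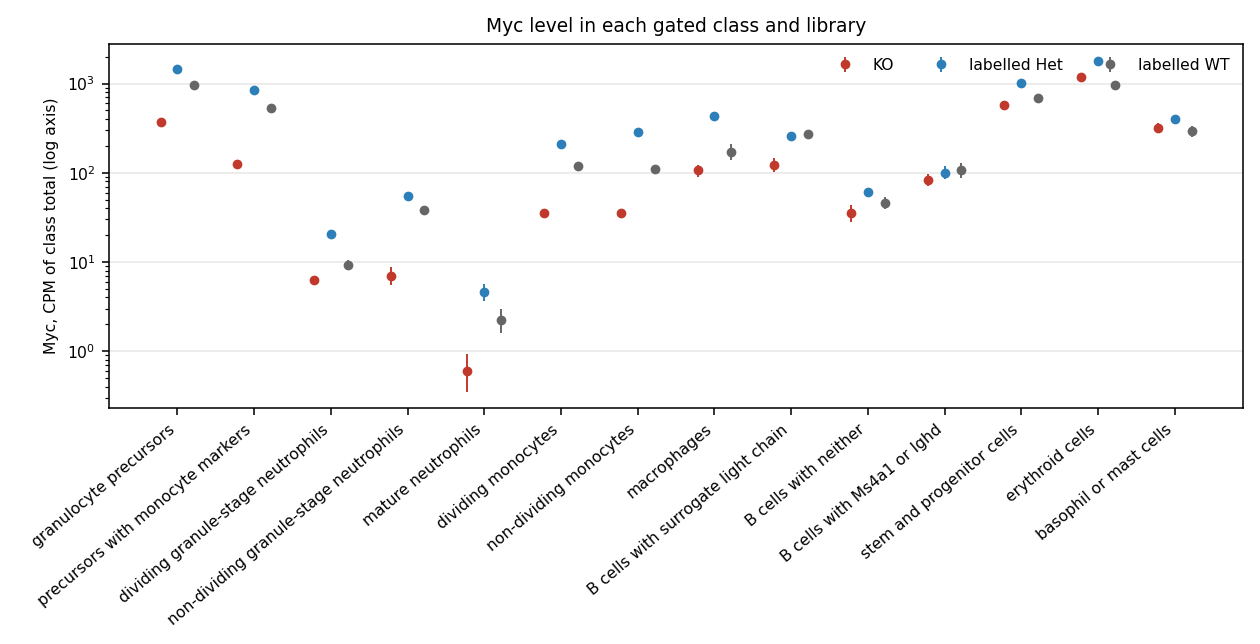
Myc level in 14 marker-defined cell classes (x axis) in CPM of the summed UMIs of the class (y axis, log scale), with KO left, labelled Het in the middle and labelled WT right within each class. Points are 1 library each and bars are exact 95% Poisson intervals; KO is the lowest point in each of the first 12 classes and lies between the other libraries in the last 2.

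Over all cells the KO level of Myc was lower too, at 55.6 CPM in KO, 266 CPM in labelled Het and 136 CPM in labelled WT. These sums run over every barcode, with doublets and cells of no class included. Class makeup differed as well: granulocyte precursors were 1.31% of cells kept in KO, 2.71% in labelled Het and 2.36% in labelled WT, and stem and progenitor cells were 0.352% in KO, 1.39% in labelled Het and 0.804% in labelled WT. Erythroid cells, also rich in Myc, were 1.21% in KO, 1.86% in labelled Het and 0.579% in labelled WT. Myc-rich classes were thus not all scarcest in KO. Over all cells, fewer cells of a Myc-rich type and less Myc per cell cannot be told apart. Of the 29 members, 21 were called lower over all cells against a background of 13.4% of 8327 genes, and 0 were called higher (background 2.76%).

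Within classes the makeup also differed. The dividing share of granulocyte precursors was 66.3% in KO, 39.6% in labelled Het and 31.8% in labelled WT. Their summed precursor markers were 57219 CPM in KO, 75976 CPM in labelled Het and 79037 CPM in labelled WT, and summed stem cell markers 394 CPM in KO, 713 CPM in labelled Het and 938 CPM in labelled WT. In precursors with monocyte markers, stem cell markers summed to 247 CPM in KO, 472 CPM in labelled Het and 515 CPM in labelled WT. KO precursors were more often dividing and poorer in stem cell markers, so the calls were repeated in 2 subsets chosen after seeing the data. With dividing precursors alone, 16 of 29 members were called lower (background 9.19%), and the Myc ratio was -1.91 against labelled Het and -1.30 against labelled WT. With only precursors under 500 CPM of stem cell markers, 13 were called lower (background 6.94%), and the Myc ratio shrank to -1.48 against labelled Het and -0.82 against labelled WT.

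Max, the partner both of Myc and of its antagonists, did not follow Myc. It was at 107 CPM in KO, 130.2 CPM in labelled Het and 124 CPM in labelled WT in granulocyte precursors and was not called in either direction in any of 14 classes. In mature neutrophils it was at 305 CPM in KO, 204 CPM in labelled Het and 209 CPM in labelled WT, above both other libraries but short of the 1.5-fold limit. Mxd1, the repressor that competes for Max, was called higher in KO in both monocyte classes. In non-dividing monocytes it stood at 371 CPM in KO, 190.3 CPM in labelled Het and 199.7 CPM in labelled WT, a log2 ratio of 0.96 against labelled Het and 0.89 against labelled WT. Dividing monocytes had Mxd1 at 125 CPM in KO, 76.8 CPM in labelled Het and 71.3 CPM in labelled WT. These were the only 2 calls of a member as higher in KO in any of the 14 classes, against backgrounds of 7.63% in non-dividing and 4.43% in dividing monocytes. In the other 12 classes 0 members were called higher, with backgrounds between 2.89% in non-dividing granule-stage neutrophils and 9.22% in B cells with neither marker set. Mature neutrophils are rich in Mxd1, and their summed markers in non-dividing monocytes were 1150.1 CPM in KO, 1066 CPM in labelled Het and 1607 CPM in labelled WT. Their part in the monocyte difference was not tested. The opposite direction was seen in erythroid cells, where Mxd1 was at 53.5 CPM in KO, 96.6 CPM in labelled Het and 152 CPM in labelled WT and was called lower. Summed mature neutrophil markers in that class were 165 CPM in KO, 69.5 CPM in labelled Het and 483 CPM in labelled WT, and their part in the Mxd1 difference was not tested.

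Promoter sequences are shown for 4 members that span the range of the results: Nop2 and Bysl had some of the largest differences, Wdr43 lay near the limit, and Max was called in no class. Myc and Max bind the sequence CACGTG, the E-box, and also the variant CACGCG with its reverse complement CGCGTG. Each sequence runs 5′ to 3′ along the gene's strand from 250 bases before to 50 bases after its start in RefSeq (GRCm38.p6), with CACGTG or the variant in capitals. The Nop2 window is chr6:125131633-125131932, plus strand. The Bysl window is chr17:47611443-47611742, minus strand, and that of Wdr43 is chr17:71615965-71616264, plus strand. The Max window is chr12:76962199-76962498, minus strand.
Nop2: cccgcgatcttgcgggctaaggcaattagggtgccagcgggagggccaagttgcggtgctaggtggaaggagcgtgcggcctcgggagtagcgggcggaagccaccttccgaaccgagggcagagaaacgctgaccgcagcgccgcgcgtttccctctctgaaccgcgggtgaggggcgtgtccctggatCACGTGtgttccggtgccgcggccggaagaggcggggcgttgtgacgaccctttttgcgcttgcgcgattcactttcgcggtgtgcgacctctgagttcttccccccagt
Bysl: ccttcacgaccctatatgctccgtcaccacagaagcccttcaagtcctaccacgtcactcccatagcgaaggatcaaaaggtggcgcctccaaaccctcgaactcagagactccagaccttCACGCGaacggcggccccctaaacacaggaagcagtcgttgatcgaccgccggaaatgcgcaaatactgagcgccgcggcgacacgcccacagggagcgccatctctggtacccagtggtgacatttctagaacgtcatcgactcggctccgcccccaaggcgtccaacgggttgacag
Wdr43: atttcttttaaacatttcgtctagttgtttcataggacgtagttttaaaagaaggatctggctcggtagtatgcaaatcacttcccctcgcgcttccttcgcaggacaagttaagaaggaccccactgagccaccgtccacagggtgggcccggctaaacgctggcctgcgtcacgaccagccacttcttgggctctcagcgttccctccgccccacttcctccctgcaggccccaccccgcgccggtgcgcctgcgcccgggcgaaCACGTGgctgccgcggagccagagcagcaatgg
Max: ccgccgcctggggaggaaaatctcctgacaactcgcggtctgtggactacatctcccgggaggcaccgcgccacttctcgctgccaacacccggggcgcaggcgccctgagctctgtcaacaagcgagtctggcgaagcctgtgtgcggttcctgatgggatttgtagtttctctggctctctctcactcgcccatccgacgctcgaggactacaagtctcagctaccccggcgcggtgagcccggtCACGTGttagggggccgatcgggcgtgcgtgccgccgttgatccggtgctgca
The E-box begins 60 bases before the start in Nop2, 3 bases before it in Max and 17 bases after it in Wdr43. Bysl has no CACGTG in this window and 1 CACGCG, 129 bases before the start. A match is a description of the sequence and does not show that Myc binds there.

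Windows were found for 23 of the 29 members, and 6 of these 23 held CACGTG: Nop2, Ltv1, Utp20, Max, Wdr43 and Sms. Over all windows of that length the share was 7.15% of 32851. Counted by window, 6 of 26 member windows (23.1%) held it. Both strands read the same for CACGTG, and the variant, sought on both strands, does not overlap it. The variant was in 6 of 26 member windows as well, against 9.27% of all windows. In granulocyte precursors 1 of the 6 with the E-box was called lower, against 13 of 17 whose windows lack it and 2 of 6 without a window (background 10.6%). The median log2 ratios against labelled Het were -0.59 with the E-box and -1.08 without it, and against labelled WT -0.47 with it and -0.84 without it. In precursors with monocyte markers 2 of 6 with it, 14 of 17 without it and 3 of 6 without a window were called lower (background 10.3%). In non-dividing monocytes 4 of 6 with it, 13 of 17 without it and 5 of 6 without a window were called lower (background 15.5%). The windows without CACGTG include those of Odc1, Nolc1, Ddx21, Bysl and Nop16, which hold the variant CACGCG. All of these were called lower in each of these classes. Sms, with the variant in another of its windows, is counted with the E-box. Windows lacking CACGTG are therefore not windows lacking a sequence that Myc and Max bind. The contrast rests on 6 members with the E-box and was not tested.

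Of the polyamine enzymes, Odc1 and Srm were called lower in KO in precursors and monocytes, and Sms in few classes. Odc1 (GRCm38 chr12:17544794-17551505, plus strand), ornithine decarboxylase, stood at 179 CPM in KO, 357 CPM in labelled Het and 319.6 CPM in labelled WT in granulocyte precursors. The non-dividing monocytes had Odc1 at 21.6 CPM in KO, 95.4 CPM in labelled Het and 94.5 CPM in labelled WT. In both classes KO lay well below labelled Het and labelled WT, which were near each other. It was called lower in 9 of 14 classes. Mature neutrophils had Odc1 at 8.07 CPM in KO, 20.0 CPM in labelled Het and 17.4 CPM in labelled WT, and macrophages had it at 38.3 CPM in KO, 111 CPM in labelled Het and 173 CPM in labelled WT. In B cells with Ms4a1 or Ighd KO was no lower, at 199.9 CPM in KO, 198 CPM in labelled Het and 179.7 CPM in labelled WT.

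Srm, spermidine synthase, showed a wider gap. Granulocyte precursors had 87.5 CPM in KO, 273 CPM in labelled Het and 254 CPM in labelled WT. Non-dividing monocytes had 8.85 CPM in KO, 73.5 CPM in labelled Het and 67.1 CPM in labelled WT. The log2 ratio in non-dividing monocytes was -3.04 against labelled Het and -2.91 against labelled WT. Srm was under the minimum level in all neutrophil stages past the precursor. Sms, spermine synthase, an X-linked gene, was at 158 CPM in KO, 180 CPM in labelled Het and 168 CPM in labelled WT in granulocyte precursors, with no library apart. It was called lower in 2 of 13 classes tested, stem and progenitor cells and non-dividing monocytes, where it was at 38.1 CPM in KO, 70.3 CPM in labelled Het and 75.04 CPM in labelled WT. Of 9 further genes of polyamine control tested in granulocyte precursors, 2 were called lower and 1 higher (backgrounds 10.6% and 6.08%). Smox, spermine oxidase, was at 6.84 CPM in KO, 12.2 CPM in labelled Het and 11.01 CPM in labelled WT, and Dhps, which uses spermidine to modify the translation factor eIF5A, at 32.2 CPM in KO, 56.4 CPM in labelled Het and 48.5 CPM in labelled WT. Sat1, which acetylates polyamines for breakdown or export, was called higher, at 352 CPM in KO, 221 CPM in labelled Het and 227 CPM in labelled WT. In mature neutrophils Eif5a itself was the 1 call among the 8 genes tested, higher in KO (background 6.28%), at 183 CPM in KO, 97.5 CPM in labelled Het and 83.6 CPM in labelled WT.

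Of the general nucleolar proteins, Gnl3, Nolc1 and Ddx21 were called lower in granulocyte precursors, and Ncl and Npm1 were not. Gnl3, nucleostemin, a GTPase of growing cells, was at 69.2 CPM in KO, 169.8 CPM in labelled Het and 166 CPM in labelled WT in granulocyte precursors. The non-dividing monocytes had 12.7 CPM in KO, 75.6 CPM in labelled Het and 63.1 CPM in labelled WT. Nolc1, a chaperone of small nucleolar ribonucleoproteins, was at 60.7 CPM in KO, 167 CPM in labelled Het and 149 CPM in labelled WT in granulocyte precursors. Non-dividing monocytes gave Nolc1 at 13.7 CPM in KO, 68.9 CPM in labelled Het and 62.7 CPM in labelled WT. Ddx21, an RNA helicase of the nucleolus, was called lower in 6 of 13 classes tested. It stood at 202 CPM in KO, 426 CPM in labelled Het and 354 CPM in labelled WT in granulocyte precursors. KO was the lowest library for all 3 proteins. Ncl, nucleolin, was at 397 CPM in KO, 549 CPM in labelled Het and 434 CPM in labelled WT there, lowest in KO, and was called in no class. Npm1, nucleophosmin, was at 713 CPM in KO, 1010.4 CPM in labelled Het and 1187 CPM in labelled WT, lowest in KO as well, and of the 14 classes was called lower only in non-dividing granule-stage neutrophils. Ncl and Npm1 are genes with close copies elsewhere in the genome, and whether their probes also count those copies was not tested, so their values are uncertain.

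Of the proteins that carry out RNA modification and early cleavage with small nucleolar RNAs, Fbl was the exception in granulocyte precursors. Nop56 and Nop58 form the core of box C/D particles. Nop56 was at 146 CPM in KO, 358 CPM in labelled Het and 319 CPM in labelled WT in granulocyte precursors. Its level in non-dividing monocytes was 30.6 CPM in KO, 142 CPM in labelled Het and 143 CPM in labelled WT. Nop58 was at 144 CPM in KO, 288 CPM in labelled Het and 218 CPM in labelled WT in granulocyte precursors, with a log2 ratio of -0.60 against labelled WT, the nearest to the limit of those called there. Npm1, Ltv1, Utp20 and Wdr43 lay nearest outside it, Wdr43 at 77.4 CPM in KO, 129 CPM in labelled Het and 107 CPM in labelled WT. Fbl, fibrillarin, the methyltransferase of the same particles, was at 166 CPM in KO, 225 CPM in labelled Het and 331 CPM in labelled WT and was not called in that class, with labelled Het between KO and labelled WT. Rrp9, a protein of the U3 particle, was at 13.1 CPM in KO, 50.4 CPM in labelled Het and 54.9 CPM in labelled WT, the largest difference of any member in that class by the smaller of its 2 ratios.

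Both box H/ACA members were called lower in granulocyte precursors. Dkc1, the pseudouridine synthase, X-linked, was at 100.1 CPM in KO, 215 CPM in labelled Het and 172 CPM in labelled WT in granulocyte precursors. Gar1, its partner, was at 99.7 CPM in KO, 216 CPM in labelled Het and 247 CPM in labelled WT. Gar1 was called lower in 10 of 13 classes tested and Dkc1 in 4 of 13. In B cells with surrogate light chain, Gar1 was at 115 CPM in KO, 189 CPM in labelled Het and 234 CPM in labelled WT and was called lower with Myc, Bysl and Nolc1.

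RNA polymerase I makes the long ribosomal RNA precursor, and Polr1a and Polr1b are its 2 largest subunits. Polr1b was called lower in 6 of 10 classes tested and Polr1a in 3 of 14, and the difference between them was not tested. Polr1b was at 21.9 CPM in KO, 44.9 CPM in labelled Het and 47.4 CPM in labelled WT in granulocyte precursors. Polr1b in non-dividing monocytes was at 5.28 CPM in KO, 17.9 CPM in labelled Het and 22.6 CPM in labelled WT. Polr1a was at 50.5 CPM in KO, 68.8 CPM in labelled Het and 70.9 CPM in labelled WT in granulocyte precursors, lowest in KO but not called. In precursors with monocyte markers Polr1a was called lower, at 46.9 CPM in KO, 82.4 CPM in labelled Het and 89.4 CPM in labelled WT. Of 25 further genes of RNA polymerases I and III tested in granulocyte precursors, 7 were called lower and none higher (background 10.6% lower). The leading 3 encode subunits of polymerase III, which makes 5S and transfer RNA. Polr3g was at 10.7 CPM in KO, 37.8 CPM in labelled Het and 39.4 CPM in labelled WT. Polr3e was at 35.0 CPM in KO, 87.4 CPM in labelled Het and 85.7 CPM in labelled WT, and Polr3d at 13.3 CPM in KO, 30.5 CPM in labelled Het and 30.8 CPM in labelled WT.

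Bysl (GRCm38 chr17:47599331-47611492, minus strand), bystin, an assembly factor of the small ribosomal subunit, was the 1 member called lower in KO in 14 of 14 classes. The background in single classes lay between 4.6% in basophil or mast cells and 15.5% in non-dividing monocytes. The share of all genes called lower in 14 of 14 classes was not counted. In granulocyte precursors it was at 25.5 CPM in KO, 87.7 CPM in labelled Het and 102 CPM in labelled WT. In non-dividing monocytes it was at 6.57 CPM in KO, 81.9 CPM in labelled Het and 90.1 CPM in labelled WT, a log2 ratio of -3.63 against labelled Het and -3.77 against labelled WT. In mature neutrophils, where only 8 members were high enough to test, it was at 4.30 CPM in KO, 20.1 CPM in labelled Het and 25.6 CPM in labelled WT. In B cells with Ms4a1 or Ighd it was at 24.8 CPM in KO, 57.6 CPM in labelled Het and 82.9 CPM in labelled WT, and in erythroid cells at 75.4 CPM in KO, 138 CPM in labelled Het and 126 CPM in labelled WT.

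The other small subunit factors were called in at most 3 classes each. Wdr43 was called lower in 3 and Utp20 in 2 of 11 classes tested, and both belong to the processome that cuts the first ribosomal RNA precursor. Utp20 was at 41.6 CPM in KO, 59.5 CPM in labelled Het and 57.7 CPM in labelled WT in granulocyte precursors. Nob1, the nuclease that makes the end of 18S RNA, was called in no class and was at 61.9 CPM in KO, 82.3 CPM in labelled Het and 76.0 CPM in labelled WT in granulocyte precursors. Ltv1, an export factor, was at 85.1 CPM in KO, 134 CPM in labelled Het and 119 CPM in labelled WT there and was called lower only in non-dividing granule-stage and mature neutrophils. In mature neutrophils it was at 9.09 CPM in KO, 17.5 CPM in labelled Het and 15.8 CPM in labelled WT.

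Of the large subunit factors, Nop2 and Nop16 were called lower in the most classes. Nop2 (GRCm38 chr6:125131909-125144753, plus strand), which methylates 28S RNA, was at 53.9 CPM in KO, 165 CPM in labelled Het and 185 CPM in labelled WT in granulocyte precursors. Its level in the non-dividing monocytes was 19.3 CPM in KO, 96.1 CPM in labelled Het and 109 CPM in labelled WT. It was called lower in 10 of 13 classes tested. Nop16, a nucleolar factor of large subunit assembly, was at 61.7 CPM in KO, 138 CPM in labelled Het and 138 CPM in labelled WT in granulocyte precursors, with both comparison libraries at the same level. In non-dividing granule-stage neutrophils it was at 2.28 CPM in KO, 18.3 CPM in labelled Het and 22.9 CPM in labelled WT. Rrs1, which helps place the 5S ribosomal RNA particle, was at 81.2 CPM in KO, 128 CPM in labelled Het and 101 CPM in labelled WT and was not called in granulocyte precursors, though it was in precursors with monocyte markers, at 52.6 CPM in KO, 135 CPM in labelled Het and 128 CPM in labelled WT. Wdr12 and Bop1 work in 1 complex. Wdr12 was at 31.4 CPM in KO, 55.6 CPM in labelled Het and 56.0 CPM in labelled WT and was called lower, while Bop1 was at 79.8 CPM in KO, 100.1 CPM in labelled Het and 79.5 CPM in labelled WT and was not.

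**Figure D2:**
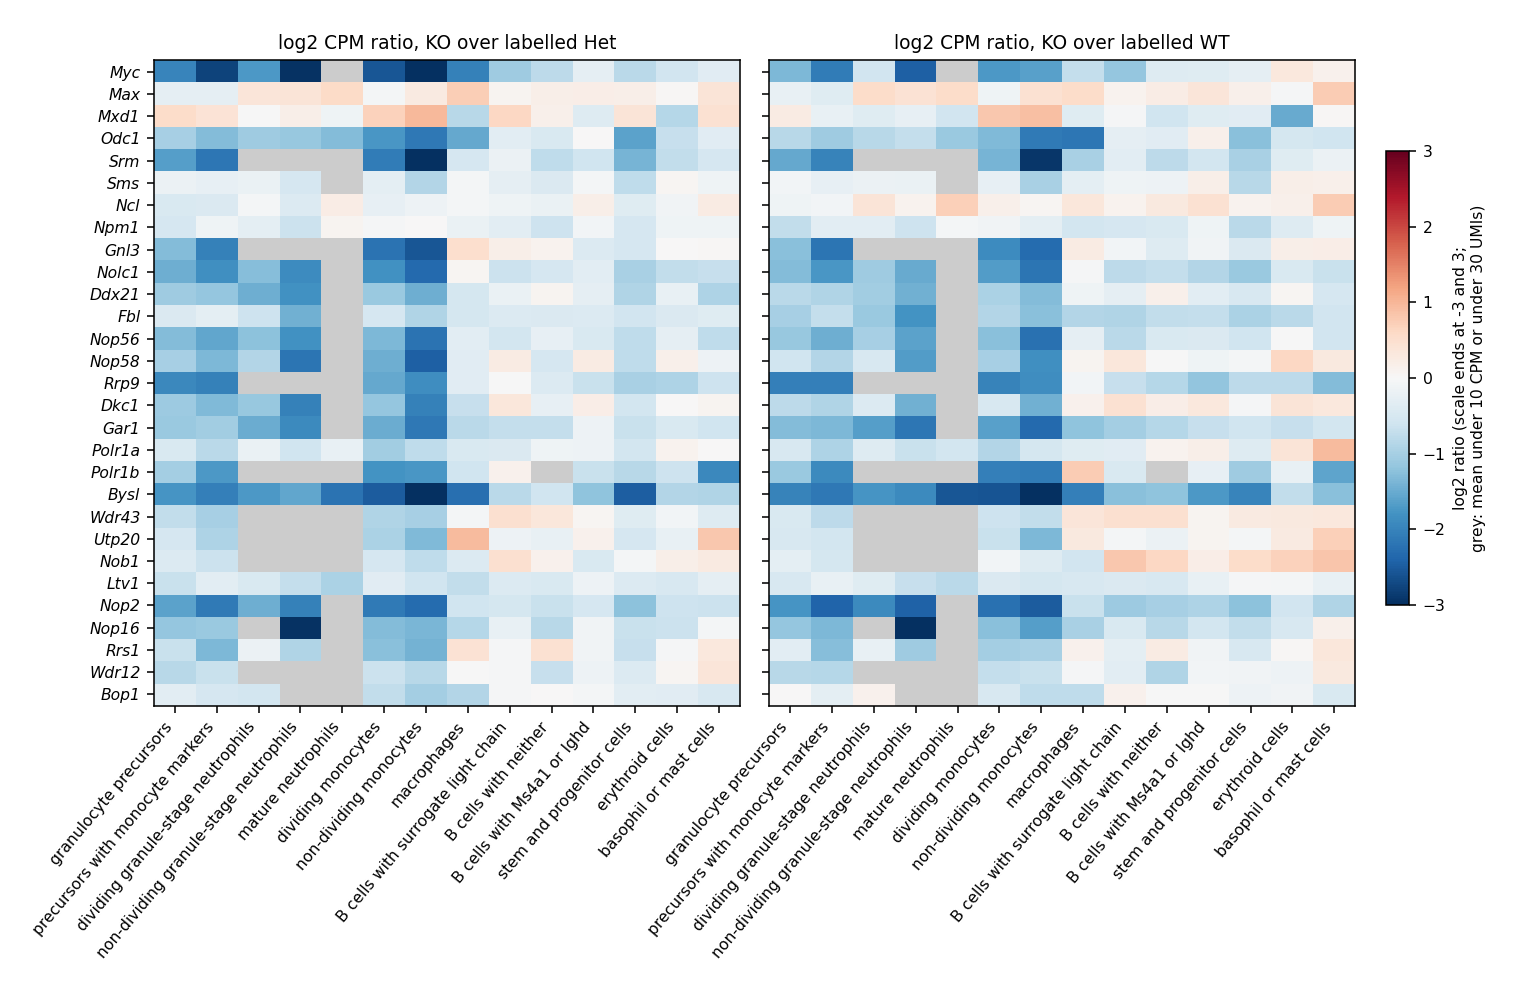
Log2 CPM ratio of KO over labelled Het (left) and of KO over labelled WT (right) for the 29 members (rows, by role) in 14 cell classes (columns). Blue is lower in KO, red is higher, the scale ends at -3 and 3, and grey marks a mean under 10 CPM or under 30 UMIs; the Bysl row is blue in every column, and Max, Ncl and Nob1 met the rule for a call against both libraries in no class.

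Counted by class, 16 of 29 members were called lower in granulocyte precursors (background 10.6%) and 19 of 29 in precursors with monocyte markers (10.3%). Dividing monocytes gave 19 of 29 (9.94%) and non-dividing monocytes 22 of 29 (15.5%). Among neutrophils the counts were 8 of 20 tested in the dividing granule stage (6.31%), 16 of 20 in the non-dividing granule stage (11.3%) and 3 of 8 in mature cells (5.96%). Means over cells, called without intervals or the UMI minimum, gave 9 in the non-dividing granule stage. Without the filter on low counts 13 were called in the dividing granule stage and 15 in mature cells. A member can pass the filter of a mean of 10 CPM through labelled Het and labelled WT alone, so counts over members tested in neutrophils are not counts over all members. The same rule for the other libraries gave few members: labelled Het was lowest for 1 member in 1 class, Mxd1 in B cells with surrogate light chain (background 0.885%), and labelled WT for 1 in 1 class, Polr1a in basophil or mast cells (4.09%). In precursors and monocytes only KO was called lowest for any member. Labelled Het was called highest for 3 of 29 members in dividing monocytes (background 0.947%) and 3 of 29 in non-dividing monocytes (1.62%). It was called highest for 1 of 29 in granulocyte precursors (0.788%) and 1 of 29 in precursors with monocyte markers (1.26%). Summed precursor markers in non-dividing monocytes were 507 CPM in KO, 1098 CPM in labelled Het and 1068 CPM in labelled WT, and with only cells under 1000 CPM of these markers 19 of 29 members were called lower there (background 12.3%). In dividing monocytes 17 of 29 were called lower among such cells (background 10.4%).

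Other classes gave smaller shares. Stem and progenitor cells gave 10 of 29 (7.03%) and macrophages 6 of 29 (7.25%). B cells gave 4 of 29 with surrogate light chain (6.88%), 6 of 28 with neither set of markers (10.7%) and 2 of 29 with Ms4a1 or Ighd (5.37%). Erythroid cells gave 3 of 29 (7.77%), Mxd1, Rrp9 and Bysl, and basophil or mast cells 3 of 29 (4.6%), Polr1b, Bysl and Nop2. The 6 B-cell members with neither set of markers were Nop16, Srm, Gar1, Wdr12, Nop2 and Bysl. The dividing share of that class was 19.4% in KO, 49.2% in labelled Het and 38.9% in labelled WT. In stem and progenitor cells it was 17.9% in KO, 31.2% in labelled Het and 32% in labelled WT. The part of dividing cells in the counts of both classes was not tested. Several of these small counts moved by more than 1.5-fold under other settings. Means over cells, called without intervals or the UMI minimum, gave 13 for B cells with surrogate light chain and 4 for those with Ms4a1 or Ighd. Limits raised 2-fold gave 0 for B cells with neither, 3 for macrophages and 5 for erythroid cells. TMM scaling gave 7 for basophil or mast cells. Differences between classes in these counts were not tested.

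Across granulocyte precursors, precursors with monocyte markers and both monocyte classes, 15 of 29 members were lower in all 4, against 3.62% of the 7706 genes tested in each: Myc, Odc1, Srm, Gnl3, Nolc1, Ddx21, Nop56, Nop58, Rrp9, Gar1, Polr1b, Bysl, Nop2, Nop16 and Wdr12. Another 6 members were called lower in none of the 4: Max, Mxd1, Ncl, Npm1, Nob1 and Ltv1. Comparisons with labelled Het and with labelled WT share the KO library, so their likeness is not independent. The median log2 ratio over the 29 members in granulocyte precursors was -0.996 against labelled Het and -0.81 against labelled WT, beside -0.04 for all genes tested in both. In non-dividing monocytes it was -1.41 against labelled Het and -1.34 against labelled WT, beside -0.07 against labelled Het and -0.11 against labelled WT for all genes. In B cells with Ms4a1 or Ighd it was -0.16 against labelled Het and -0.14 against labelled WT.

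**Figure D3:**
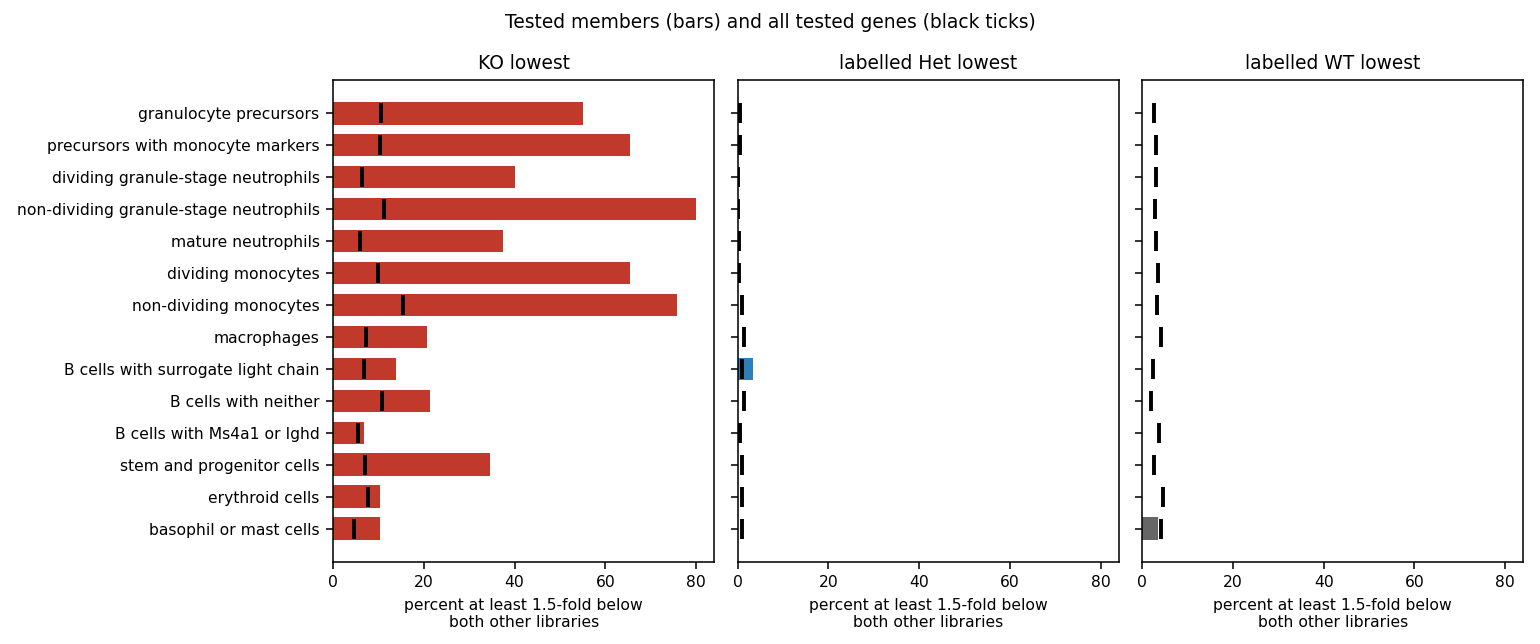
Percent of tested members (bars) and of all tested genes (black ticks) at least 1.5-fold below both other libraries, for each class, with KO as the lowest library on the left, labelled Het in the middle and labelled WT on the right. Bars exceed ticks by the most in the KO panel for precursors, granule-stage neutrophils and monocytes, and the other panels hold 1 short bar each.

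Summed over the 26 enzymes and assembly factors without Myc, Max and Mxd1, the set stood at 3207 CPM in KO, 5677 CPM in labelled Het and 5512 CPM in labelled WT in granulocyte precursors. KO was 0.565-fold of labelled Het (95% interval 0.555 to 0.575) and 0.582-fold of labelled WT (95% interval 0.570 to 0.593). In non-dividing monocytes the sum was 1197 CPM in KO, 2480.2 CPM in labelled Het and 2449 CPM in labelled WT. In erythroid cells, the class richest in these genes, it was 10014 CPM in KO, 11955 CPM in labelled Het and 11261 CPM in labelled WT, and in B cells with Ms4a1 or Ighd 2796 CPM in KO, 3079 CPM in labelled Het and 3165 CPM in labelled WT. A sum weighs members with many UMIs most, Npm1 among them.

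Across the 14 classes of 1 library, classes with more Myc had more of this sum, with Spearman rho of 0.908 in KO, 0.824 in labelled Het and 0.890 in labelled WT. Over the same classes the Myc ratio and the median member ratio ran together, with rho of 0.903 against labelled Het and 0.868 against labelled WT. That median was taken over all 29 members, Myc itself and members under the minimum level included, so the 2 values are not separate. In mature neutrophils it was -1.02 against labelled Het and -1.01 against labelled WT. Over the 8 members tested there it was -0.18 against labelled Het and -0.57 against labelled WT. These describe 14 classes that share their libraries, depth and gates, and they carry no p-value.

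Nearly the whole set stood lower in mature neutrophils than in their precursors in every library. At least 2-fold higher levels in granulocyte precursors than in mature neutrophils in all 3 libraries held for 26 of 29 members, but also for 52.7% of 8214 genes. The median log2 ratio of the members was 5.53 in KO, 5.73 in labelled Het and 5.51 in labelled WT. For all genes it was 1.30 in KO, 1.39 in labelled Het and 1.35 in labelled WT. Myc had log2 ratios of 9.26 in KO, 8.31 in labelled Het and 8.73 in labelled WT. Bysl had a smaller step, with 2.57 in KO, 2.13 in labelled Het and 2.0003 in labelled WT. Mxd1 ran the other way (background 7.11%), with -3.71 in KO, -4.40 in labelled Het and -4.54 in labelled WT, and Max at -1.51 in KO, -0.65 in labelled Het and -0.75 in labelled WT and Polr1a were called in neither direction.

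Monocytes showed a smaller step. In precursors with monocyte markers 18 of 29 members were at least 2-fold higher than in non-dividing monocytes in all 3 libraries, against 9.74% of 8697 genes. Mxd1 was at least 2-fold lower (background 6.05%). The median log2 ratio of the members was 1.48 in KO, 1.12 in labelled Het and 1.21 in labelled WT. In B cells 1 of 29 members, Npm1, met that limit between the surrogate light chain stage and cells with Ms4a1 or Ighd (background 6.43%), and 0 were at least 2-fold lower (background 4.12%).

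**Figure D4:**
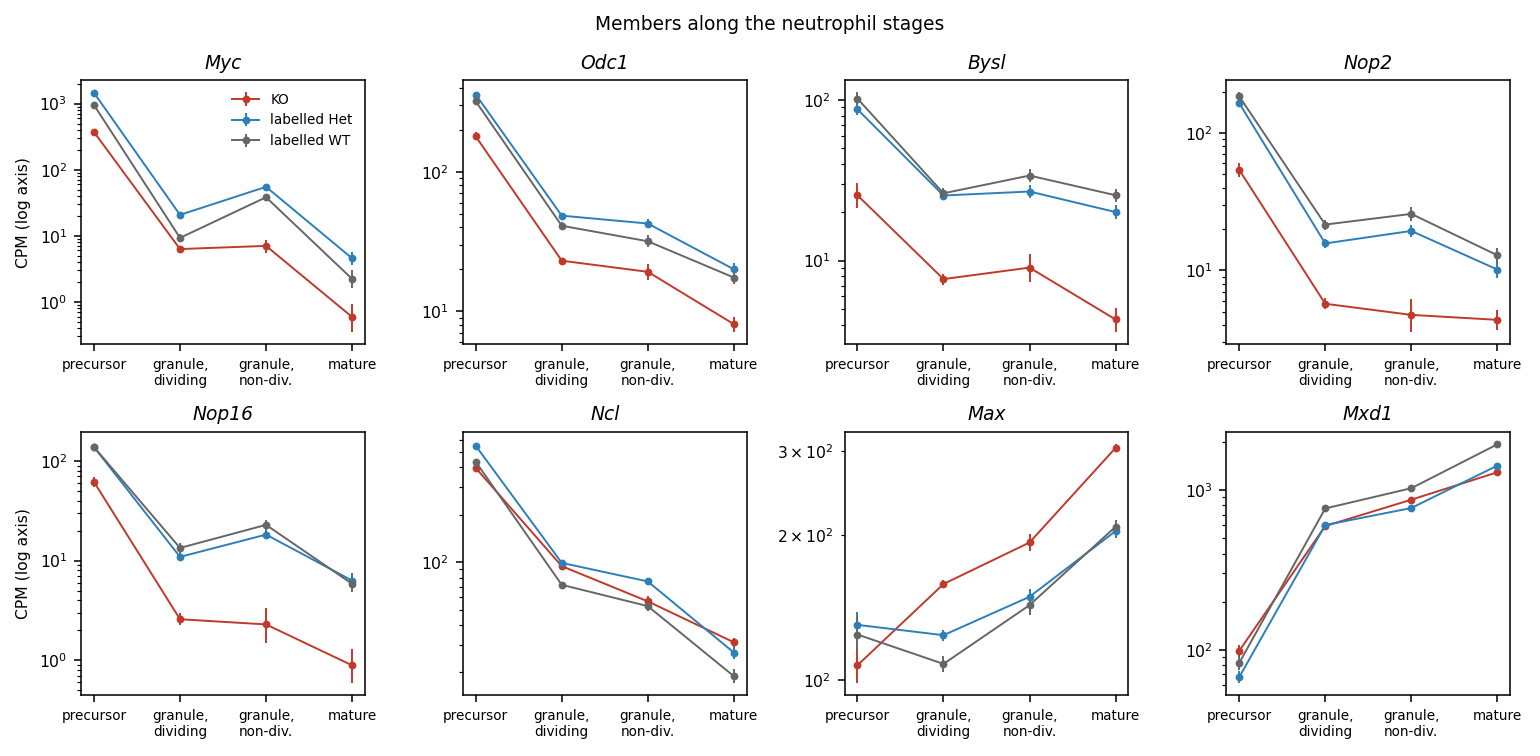
Levels of 8 members in CPM (y axis, log scale) at 4 stages of the neutrophil lineage (x axis, early to late), with KO in red, labelled Het in blue and labelled WT in grey. Points are 1 library each with exact 95% Poisson intervals; Myc, Odc1, Bysl, Nop2 and Nop16 run lowest in KO at each stage, Ncl and Max do not, and Mxd1 is higher at each later stage in all libraries.

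Depth differed between the libraries, so cells were also compared after thinning each to 3000 UMIs, which left out 266 shallower cells in KO, 230 in labelled Het and 719 in labelled WT over the 14 classes. In granulocyte precursors 1 or more Myc UMIs were found in 54.8% in KO (95% interval 44.7% to 64.6%), 79.1% in labelled Het (95% interval 73.0% to 84.4%) and 75.9% in labelled WT (95% interval 69.7% to 81.4%). Without thinning the shares were 91.3% in KO, 94.3% in labelled Het and 90.9% in labelled WT, at median depths of 47813.5 UMIs in KO, 34802 in labelled Het and 20399.5 in labelled WT. Thinned mature neutrophils, which hold little Myc, had 0.235% in KO (95% interval 0.0764% to 0.548%), 0.695% in labelled Het (95% interval 0.360% to 1.21%) and 0.708% in labelled WT (95% interval 0.427% to 1.10%). Precursors with monocyte markers had 24.5% in KO (95% interval 17.6% to 32.5%), 77.2% in labelled Het (95% interval 69.5% to 83.8%) and 56.0% in labelled WT (95% interval 47.4% to 64.4%). In non-dividing monocytes Myc was found in 6.47% in KO (95% interval 4.40% to 9.10%), 31.8% in labelled Het (95% interval 26.5% to 37.4%) and 17.8% in labelled WT (95% interval 13.4% to 22.9%), and Bysl in 1.29% in KO (95% interval 0.476% to 2.79%), 21.1% in labelled Het (95% interval 16.6% to 26.1%) and 20.0% in labelled WT (95% interval 15.4% to 25.3%). At equal depth, the share with a Myc UMI was lowest in KO in both precursor classes and in non-dividing monocytes, and all of those shares lay above those of mature neutrophils in the same library.

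Per thinned granulocyte precursor the 26 enzymes and assembly factors had a median of 8 UMIs in KO, 15 in labelled Het and 15 in labelled WT. The medians in precursors with monocyte markers were 9 UMIs in KO, 16 in labelled Het and 15 in labelled WT. Erythroid cells had 29 in KO, 37 in labelled Het and 34.5 in labelled WT, and mature neutrophils 0 in every library. Cells of 1 library share their source, so the spread over cells is not a spread over animals.

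**Figure D5:**
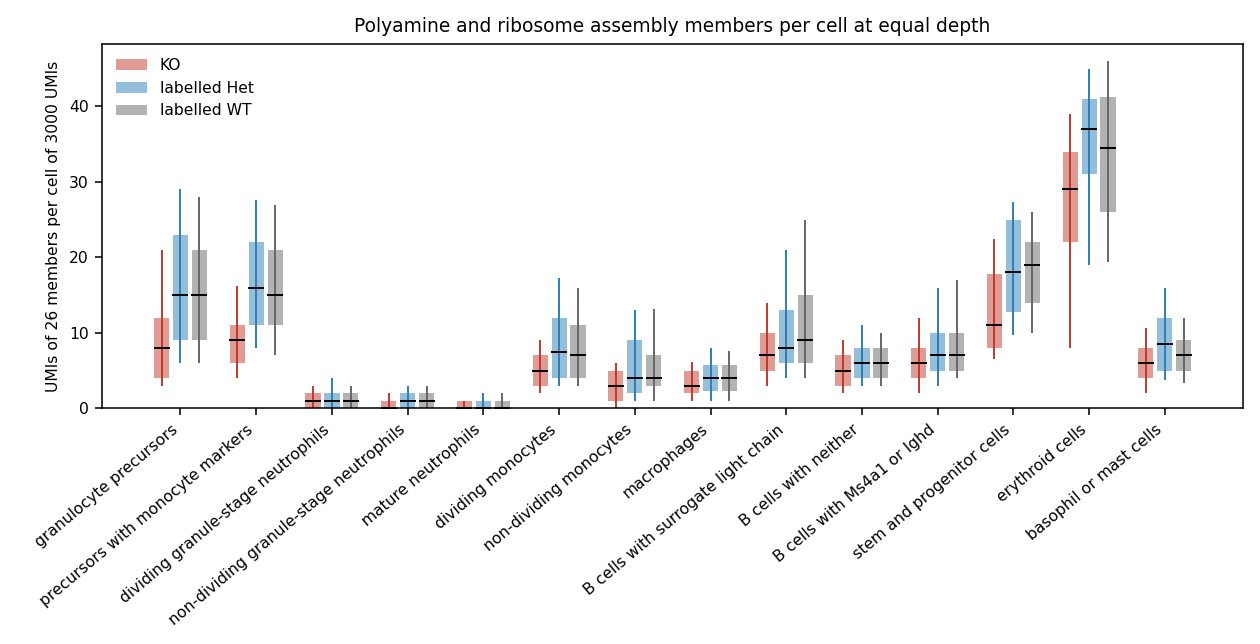
UMIs of the 26 enzymes and assembly factors per cell after thinning to 3000 UMIs (y axis) in 14 classes (x axis), KO left, labelled Het in the middle, labelled WT right. Black marks are medians over cells, boxes span the middle 50% and lines the 10th to the 90th percentile; KO medians are 8 and 9 in the 2 precursor classes against 15 or 16 in the other libraries.

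Lists of other genes of the same pathways, which hold none of the members were counted by the same rule. In granulocyte precursors, 15 of 44 small subunit processome genes and 18 of 40 large subunit assembly genes were called lower, and none of either list higher (background 10.6% lower). The median log2 ratios of the small subunit list were -0.57 against labelled Het and -0.46 against labelled WT, and those of the large subunit list -0.62 against labelled Het and -0.55 against labelled WT. The leading small subunit genes were Nat10, an RNA acetyltransferase, at 33.6 CPM in KO, 80.3 CPM in labelled Het and 79.3 CPM in labelled WT, then Tsr1 and Nop14. Tsr1 was at 66.0 CPM in KO, 138 CPM in labelled Het and 165 CPM in labelled WT. The leading large subunit genes were Ppan at 89.1 CPM in KO, 206 CPM in labelled Het and 237 CPM in labelled WT, then Urb2 at 36.8 CPM in KO, 78.6 CPM in labelled Het and 93.4 CPM in labelled WT and Urb1.

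Among 10 genes of small nucleolar particle assembly 3 were called lower in granulocyte precursors (background 10.6% for this and the next lists), led by Shq1 at 28.8 CPM in KO, 50.6 CPM in labelled Het and 57.3 CPM in labelled WT and Nhp2 at 169 CPM in KO, 292 CPM in labelled Het and 302 CPM in labelled WT. Of 23 metabolic genes known as Myc targets 8 were lower. Shmt1, a serine hydroxymethyltransferase, was at 59.3 CPM in KO, 133 CPM in labelled Het and 117 CPM in labelled WT. Ppat, the first enzyme of purine synthesis, was at 101 CPM in KO, 185 CPM in labelled Het and 212 CPM in labelled WT. Hspd1, a mitochondrial chaperone, was at 138 CPM in KO, 285 CPM in labelled Het and 253 CPM in labelled WT. Of 7 further Myc network genes tested 1 was lower, a share near the background, Mga, at 35.0 CPM in KO, 62.8 CPM in labelled Het and 67.8 CPM in labelled WT. Non-dividing monocytes had 25 of 44 small subunit, 22 of 40 large subunit, 6 of 10 particle and 15 of 22 metabolic genes lower (background 15.5%). Erythroid cells had 4 of 44 small subunit and 2 of 40 large subunit genes lower (background 7.77%). In mature neutrophils 4 of 21 tested small subunit genes were lower (background 5.96%), led by Dhx37 at 6.50 CPM in KO, 12.7 CPM in labelled Het and 12.6 CPM in labelled WT. Of the large subunit genes 1 of 11 tested was lower there, Rbm28, a share near that background. Ribosomal protein genes were not analysed here.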

How the data were processed

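The authors deposited 1 filtered matrix of whole-number UMI counts per library, made with Cell Ranger 7.0.0 against mm10 per the submitters' processing notes; the counts are not normalized. RNA came from viable CD45-positive cells of newborn liver that were filtered, spun slowly to remove hepatocytes, freed of red cells, sorted and fixed, and it was read with gene-specific probes (10x Flex), per the labels' protocols. Sums ran over 186295183 UMIs in KO, 144589956 in labelled Het and 96629431 in labelled WT. The members and gene lists were chosen with earlier results of these data known.

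Barcodes under 200 genes and doublets were left out of the classes, but not of the sums over all cells. Doublets marked by scanpy 1.11.5 (Scrublet) numbered 298 in KO, 186 in labelled Het and 273 in labelled WT. Marker limits on summed CPM (precursors 10000, granule stage 15000, mature 5000, monocytes 500, dividing 1000) placed 96.1% of cells in KO, 94.2% in labelled Het and 95.3% in labelled WT. Depth differed between libraries, so gates on thinned cells were an alternative. Counts were summed per class and library. Intervals are exact Poisson for levels, exact binomial for shares and conditional binomial for ratios (95%, scipy 1.17.1), and 0.5 was added for log2 ratios. Calls followed the 1.5-fold rule of the report. With 1 library per group no test was run, and the calling step was checked on simulated counts.

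Values are printed for Myc, Max, Mxd1, the polyamine enzymes and, per class, up to 8 called members by the smaller ratio; others were added to account for each member. Other pathway genes are up to 3 per list called in granulocyte precursors or mature neutrophils. Alternatives were TMM (edgeR 4.0.16) and median-of-ratios (DESeq2 1.42.0) scaling, a lower fold and a fold of 2, no filter on low counts, limits raised 2-fold, gates on cells thinned to 3000 UMIs, means over cells, and 3 subsets added after seeing the data. Counts from means over cells used the fold and the mean level alone, without intervals or the UMI minimum. Leaving out a replicate was not possible with 1 library per genotype. Sequences are from RefSeq (GRCm38.p6).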

Additional observations from a re-analysis of the deposited data

Results flagged for a closer look

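Mxd1, which encodes a repressor of Myc targets, differed between libraries in opposite directions in different cell classes. In dividing monocytes the log2 ratio of KO was 0.70 against labelled Het and 0.81 against labelled WT. In non-dividing monocytes it was 0.96 against labelled Het and 0.89 against labelled WT. In erythroid cells it was -0.85 against labelled Het and -1.50 against labelled WT. Each class has 1 library per genotype, so the difference between classes was not tested.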

How the results depend on the processing

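No paired analysis was possible because each genotype has 1 library and all 3 carry the same replicate number. Over 46 counts and Myc ratios, 348 alternative values were computed. Of these, 272 stayed close, meaning a count within 1.5 times the reported one or a Myc ratio inside the reported counting interval, while 71 moved further and 5 reversed. All ratios here are log2 of KO, first against labelled Het (H) and then against labelled WT (W), for Myc; counts are of members called lower in KO. The causes of these shifts were not tested.

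Median-of-ratios scaling gave a Myc ratio of -1.90 (H) in granulocyte precursors and 7 members in basophil or mast cells (3 as reported). TMM gave 7 there too, and 0 members (1 as reported) for the B-cell stages. With limits raised 2-fold the Myc ratio was -1.62 (H) and -0.99 (W) in granulocyte precursors, -3.02 (H) and -2.49 (W) in precursors with monocyte markers, -2.93 (H) and -2.11 (W) in dividing monocytes, and -1.40 (H) and -0.82 (W) in stem and progenitor cells. It was -0.17 (W) in dividing and -5.80 (H) and -6.27 (W) in non-dividing granule-stage neutrophils, where KO kept 1 Myc UMI, -1.99 (H) in mature neutrophils and 1.00 (W) in erythroid cells. In B cells with neither marker set it reversed to 1.69 (H) and 0.98 (W). Counts were 3 in macrophages, 0 in B cells with neither, 5 in erythroid and 6 in basophil or mast cells, and members called higher in KO, summed over classes, were 8 (2 as reported).

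Means over cells gave Myc ratios of -1.24 (W) in granulocyte precursors, -1.93 (W) in precursors with monocyte markers, -2.38 (H) and -1.36 (W) in non-dividing granule-stage neutrophils, -1.70 (H) in mature neutrophils, and -0.64 (H) and 0.48 (W) in erythroid cells. In B cells they gave -2.02 (H) and -1.70 (W) with surrogate light chain, -0.87 (H) with Ms4a1 or Ighd, and reversed values of 0.16 (H) and 0.52 (W) with neither. Counts, called here without intervals, were 9 in non-dividing granule-stage neutrophils, 13 in B cells with surrogate light chain, 4 with Ms4a1 or Ighd and 6 in basophil or mast cells. Gates on thinned cells gave -2.22 (W) in precursors with monocyte markers, -1.89 (H) and -1.88 (W) in non-dividing granule-stage neutrophils, -2.78 (H) in dividing monocytes, -1.48 (W) in B cells with surrogate light chain, and -0.24 (H) and a reversed 0.20 (W) in mature neutrophils. Counts were 1 in B cells with Ms4a1 or Ighd and 0 for the B-cell stages.

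Precursors under 500 CPM of stem cell markers gave -1.48 (H) and -0.82 (W), and those with monocyte markers -2.57 (H) and -1.68 (W). Dividing precursors with monocyte markers gave -2.32 (H) and -1.94 (W). With cells under 1000 CPM of precursor markers the ratio was -1.49 (H) in dividing and -2.38 (H) and -0.47 (W) in non-dividing granule-stage neutrophils, with 6 members, and -2.67 (H) in non-dividing monocytes. Without the filter on low counts 13 members were called in dividing granule-stage and 15 in mature neutrophils. At a 2-fold rule counts were 2 in macrophages, 1, 0 and 1 in B cells (surrogate light chain, neither, Ms4a1 or Ighd), 3 in stem, 0 in erythroid and 1 in basophil or mast cells, with 0 higher in KO. At the lowest fold tried they were 9, 12 and 6 in the same B-cell classes, 10 in erythroid and 6 in basophil or mast cells, with 11 higher in KO.

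Depth limits the low end: Myc in mature neutrophils rests on 18 UMIs in KO, 89 in labelled Het and 43 in labelled WT, and the stem and progenitor class on 28 cells in KO. Median depth was highest in KO and lowest in labelled WT. Intervals cover counting error only, and the spread between animals is unknown.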
